A study of Mus musculus with 12 samples.

Results

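Moxd1, Chl1, Tmie, Emb and Gcnt4 are 5 of the 22180 genes that had a probe set of their own on a whole-transcript array of mouse sternal cartilage. They were chosen by the size of their increase, on these same arrays, in mice without tissue inhibitors of metalloproteinases (TIMPs), so their difference between genotypes is given below as a description, without a test. The mutant mice, called TIMPless or QT, lacked all 4 Timp genes throughout the body from conception, and the control mice were wild type (WT). Both genotypes were of C57BL/6J strain, untreated and 4 wk old. Cartilage of the sternum without the xiphoid process was dissected from 6 QT and 6 WT mice, and each mouse gave 1 array. Early exons are deleted in whole or in part in the Timp2, Timp3 and Timp4 alleles, whereas stop codons interrupt the Timp1 allele. The mutations are not limited to cartilage. Bulk tissue was measured, so a change in the number of cells of a type and a change in RNA per cell cannot be told apart.

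The 5 genes do not belong to one pathway. Moxd1 encodes a monooxygenase related to dopamine beta-hydroxylase, a family of enzymes that bind copper. Chl1, the close homolog of L1, is an adhesion molecule of the immunoglobulin superfamily best known from growing axons, and its outer part can be released from the cell surface by the proteases ADAM8 and BACE1. Tmie encodes a small membrane protein of the mechanotransduction channel of inner ear hair cells, and mice without it are deaf. Emb encodes embigin, a relative of basigin that escorts monocarboxylate transporters to the cell surface. Gcnt4 encodes a Golgi glycosyltransferase that adds the branching N-acetylglucosamine of core 2 to mucin-type O-glycans. TIMPs inhibit matrix metalloproteinases and several ADAM and ADAMTS proteases, which cut matrix and cell surface proteins.

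Values are log2 intensities after robust multiarray averaging (RMA), in which 1 unit is a doubling and each probe set has its own scale, so that levels are compared between mice and not between genes. Each of the 12 arrays had a median from 6.15 to 6.20 log2. The probe sets of the targeted genes were lower in QT for Timp2 by a log2 difference of -1.62, for Timp3 by -1.27 and for Timp4 by -1.66, and the genotypes did not overlap for these genes. Timp1 had 8.61 to 9.67 log2 in QT and 9.54 to 10.33 log2 in WT, a difference of -0.87 (limma adjusted p = 0.0276), and here the ranges overlapped. All 12 chondrocyte markers were above the array medians and none of them was called different. Their median log2 difference was -0.16. Comp was lower in QT by a log2 difference of -0.52 (limma adjusted p = 0.0014), and every QT mouse lay below every WT mouse. Snorc was lower by -0.365 (limma adjusted p = 0.048). Both genes fell short only of the fold that a call requires. Of the other lists, against 2.30% of all genes called in either direction, 7 of 12 skeletal muscle genes and 7 of 9 adipocyte genes were called lower in QT, and 2 of 8 osteoblast and osteocyte genes were called higher. In the Schwann cell and nerve list 2 of 12 genes were called lower in QT, S100b with 7.89 in QT and 8.52 in WT and Uchl1 with 6.09 in QT and 6.71 in WT. The median log2 difference of that list was nevertheless 0.12. Its gene Gfap was higher in QT by 0.35 (limma adjusted p = 0.037), short only of the fold. None of the genes in the other 7 cell type lists was called. Their levels were not all alike, since the median log2 difference was 0.76 for the neutrophil and marrow list and 0.48 for the erythroid list. Mice varied widely in these lists. The neutrophil and marrow means were 8.68 to 11.21 in QT and 8.54 to 10.21 in WT, and the erythroid means 6.58 to 10.28 in QT and 6.87 to 8.85 in WT. Mean log2 values over the muscle list were 8.34 to 9.29 in QT and 9.27 to 10.78 in WT, and over the adipocyte list 7.74 to 8.37 in QT and 8.58 to 9.60 in WT. Over the osteoblast and osteocyte list they were 9.53 to 9.78 in QT and 8.63 to 9.48 in WT. The part of these cell types in the differences of the 5 genes was not tested. Xist was at 5.17 and 5.34 log2 in WT 6 and WT 5, against 11.91 to 12.22 log2 in the other 10 mice, and the Y-linked gene Eif2s3y was at 9.06 and 9.20 log2 in those WT mice, against 3.50 to 3.99 log2 elsewhere, so the WT group held both sexes and the QT group only Xist-positive mice.

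Upstream sequence of Moxd1, Chl1 and Gcnt4 is shown because their pairs had the highest Pearson's r among the QT mice, as given further on. None of these pairs passed the adjusted test, and by rank order Moxd1 was closer to Emb than to Chl1 or Gcnt4. The sequences are the 250 bases before the annotated start, from RefSeq on GRCm38.p6, all on the plus strand, and 5′ to 3′. They lie at chr10:24223267-24223516 for Moxd1, chr6:103510626-103510875 for Chl1, and chr13:96924094-96924343 and chr13:96924463-96924712 for the 2 annotated starts of Gcnt4. Capitals mark matches on either strand to TGANTCA (AP-1) and GGGCGG (SP/KLF).
Moxd1: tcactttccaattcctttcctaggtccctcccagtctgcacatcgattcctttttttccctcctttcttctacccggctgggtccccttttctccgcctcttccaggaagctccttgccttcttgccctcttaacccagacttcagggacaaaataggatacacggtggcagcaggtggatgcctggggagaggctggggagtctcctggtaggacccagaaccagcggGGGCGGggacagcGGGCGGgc
Chl1: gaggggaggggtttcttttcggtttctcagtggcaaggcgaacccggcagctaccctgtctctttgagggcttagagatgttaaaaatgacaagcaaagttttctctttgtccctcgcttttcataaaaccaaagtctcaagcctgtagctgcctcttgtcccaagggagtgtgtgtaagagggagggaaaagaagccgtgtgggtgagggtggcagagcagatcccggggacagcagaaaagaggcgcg
Gcnt4, start 1: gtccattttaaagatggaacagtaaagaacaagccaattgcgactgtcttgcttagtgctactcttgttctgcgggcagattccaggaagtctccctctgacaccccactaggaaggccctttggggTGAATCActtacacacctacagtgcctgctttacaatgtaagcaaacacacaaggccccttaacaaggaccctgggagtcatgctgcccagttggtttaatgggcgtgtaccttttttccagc
Gcnt4, start 2: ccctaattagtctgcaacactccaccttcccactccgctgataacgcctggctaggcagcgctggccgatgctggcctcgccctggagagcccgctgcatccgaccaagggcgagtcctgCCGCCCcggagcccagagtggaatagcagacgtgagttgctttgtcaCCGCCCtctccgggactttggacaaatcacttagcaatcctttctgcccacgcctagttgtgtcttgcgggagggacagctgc
The SP/KLF letters stood 21 and 8 bases before the start of Moxd1 and 130 and 83 bases before the second start of Gcnt4, and were also in the windows of Tmie and Emb, while 32.7% of all 32851 promoters hold them. The AP-1 letters stood 123 bases before the first start of Gcnt4 and in no other window of the 5 genes (6.75% of all promoters). Other motifs were searched on both strands and were in none of the windows of the 5 genes. They were TGACGTCA (CRE, in 1.55% of all promoters), TGTGGT (Runx, in 14% of all promoters), CCGGAA (ETS, in 12% of all promoters) and GACCACCCA (Gli, in 0.23% of all promoters). The letters of the TATA box, TATAAA, were also in none of them and are in 12.4% of all promoters. CANNTG (E-box, not capitalized), held by 66.2% of promoters, was in every window but that of Chl1. No match overlapped a match to another motif. Moxd1, Chl1 and Gcnt4 share none of the 8 motifs in these windows, since that of Chl1 held none.

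All 5 genes were among the probe sets called higher in QT (limma, Benjamini-Hochberg adjusted p under 0.05 and a fold of at least 1.5), a call given to 246 of all 41345 probe sets (0.595%), or to 665 in either direction (1.61%). In each of the 5, every QT mouse lay above every WT mouse, which held for 1.38% of all probe sets. The choice of the genes fixed both counts.

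Moxd1 (probe set 17232215) had the largest difference of the 5 and the 3rd largest increase of all probe sets. Its log2 values were 10.29, 11.42, 10.01, 10.18, 9.88 and 10.99 in QT 1 to QT 6, against 6.43, 6.01, 6.51, 6.06, 6.47 and 6.79 in WT 1 to WT 6. The groups were far apart, with the lowest QT mouse, QT 5, 3.09 log2 units above the highest WT mouse, WT 6. QT 2 and QT 6 stood above the other QT mice, which lay close together. The means were 10.46 ± 0.61 in QT and 6.38 ± 0.29 in WT (SD, n = 6 each), a log2 difference of 4.08 (SE 0.25) or 17.0-fold. The QT values spread more than the WT values, with a ratio of SDs of 2.06.

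Chl1 (probe set 17461205) was the 7th largest increase. Its log2 values were 7.34, 8.90, 7.78, 7.53, 7.94 and 9.15 in QT 1 to QT 6, against 5.79, 4.98, 5.59, 4.88, 4.98 and 5.04 in WT 1 to WT 6. QT 6 and QT 2 were again the highest QT mice, and the WT mean lay under the median of every array. QT averaged 8.11 ± 0.74 and WT 5.21 ± 0.38 (SD, n = 6 each), a log2 difference of 2.90 (SE 0.30) or 7.45-fold. The lowest QT mouse was 1.55 log2 units above the highest WT mouse. In WT, WT 1 and WT 3 stood above the other 4 mice.

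Tmie (probe set 17531671) was the 15th largest increase, with log2 values of 8.95, 9.66, 9.28, 9.44, 9.60 and 8.99 in QT 1 to QT 6, against 6.97, 7.10, 7.22, 7.78, 7.31 and 7.66 in WT 1 to WT 6. Unlike for Moxd1 and Chl1, QT 6 was here the second lowest QT mouse. QT averaged 9.32 ± 0.30 and WT 7.34 ± 0.32 (SD, n = 6 each), a log2 difference of 1.98 (SE 0.16) or 3.94-fold, and the spread within the genotypes was nearly the same (ratio of SDs 0.949). The gap between the lowest QT and the highest WT mouse was 1.17 log2 units.

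Gcnt4 (probe set 17289324) was the 23rd largest increase. Its log2 values were 7.34, 8.72, 7.17, 6.90, 7.90 and 8.06 in QT 1 to QT 6, against 5.82, 5.72, 5.87, 6.02, 6.24 and 5.93 in WT 1 to WT 6. QT 2 was the highest mouse by a clear margin, and QT 4, the lowest QT mouse, was 0.66 log2 units above WT 5. QT averaged 7.68 ± 0.67 and WT 5.93 ± 0.18 (SD, n = 6 each), a log2 difference of 1.75 (SE 0.25) or 3.36-fold. The WT mean was under the median of every array, and Gcnt4 had the largest ratio of SDs of the 5 genes, 3.71.

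Emb (probe set 17290083) was the 61st largest increase and the one of the 5 with the tightest QT values. They were 10.89, 11.14, 10.99, 11.11, 10.85 and 11.06 log2 in QT 1 to QT 6, against 9.39, 9.95, 9.67, 9.55, 9.92 and 9.81 log2 in WT 1 to WT 6. All 6 QT mice fell within a narrow band, 0.90 log2 units above the highest WT mouse at its lower edge. QT averaged 11.01 ± 0.12 and WT 9.72 ± 0.22 (SD, n = 6 each), a log2 difference of 1.29 (SE 0.10) or 2.45-fold, and the ratio of SDs was 0.538. A second, dimmer Emb probe set (17296466) differed by only 0.25, with means of 5.98 in QT and 5.73 in WT that lay under every array median. There 5 of 6 QT mice were above the highest WT mouse. The mean of both Emb probe sets gave a difference of 0.77.

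**Figure D1:**
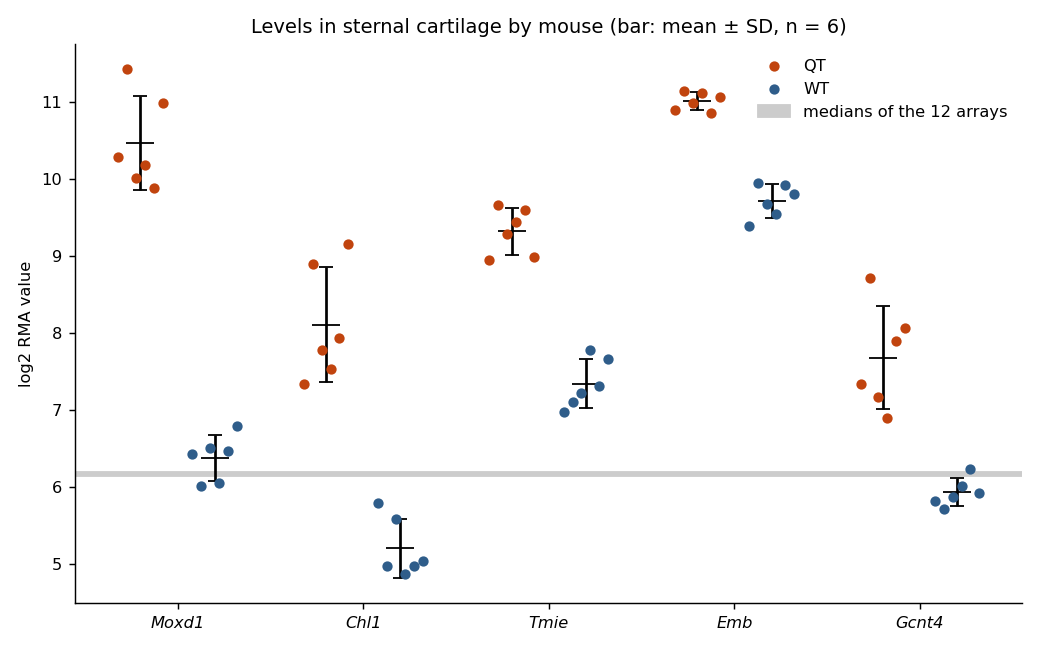
Log2 RMA value of each gene (x axis) in each mouse (points, replicates 1 to 6 from left to right), with the QT mice left of the WT mice, the mean and SD of each genotype (n = 6) and the range of the array medians as a gray band. Every QT point lies above every WT point of its gene, the QT points of Moxd1, Chl1 and Gcnt4 spread widely, and those of Emb lie between 10.85 and 11.14.

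The spread in QT therefore differed among the genes. The median ratio of the QT SD to the WT SD was 0.934 over all probe sets and 1.43 over those called higher in QT. The ratios of Moxd1, Chl1 and Gcnt4 lay above that of the probe sets called higher, and those of Tmie and Emb lay below it. The differences moved little when any 1 mouse was left out, and stayed between 3.89 and 4.20 log2 units for Moxd1, 2.69 to 3.05 for Chl1, 1.91 to 2.07 for Tmie, 1.23 to 1.34 for Emb and 1.54 to 1.90 for Gcnt4. Without WT 5 and WT 6, the mice with low Xist, the differences were 4.21, 2.80, 2.05, 1.37 and 1.82 for Moxd1, Chl1, Tmie, Emb and Gcnt4.

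The same QT mouse led most of the genes. QT 2 was the highest QT mouse for 4 of the 5, Moxd1, Tmie, Emb and Gcnt4, and the second highest for Chl1. QT 6 was the highest for Chl1 and the second highest for Moxd1 and Gcnt4, but not for Tmie or Emb. QT 2 was also the highest QT mouse in 116 of the 246 probe sets called higher in QT (47.2%), more than any other QT mouse, and QT 6 was the highest in 30 (12.2%). Among the cell type lists, QT 2 had the lowest QT mean for erythroid genes (6.58 log2, others 8.40 to 10.28). It was also lowest for neutrophil and marrow genes (8.68, others 10.04 to 11.21). It had the highest QT mean for fibroblast, perichondrium and tendon genes (10.76, others 10.09 to 10.73) and for endothelial genes (8.77, others 8.20 to 8.64). The part of tissue composition in the place of QT 2 was not tested. No WT mouse led more than 1 of the 5 genes.

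**Figure D2:**
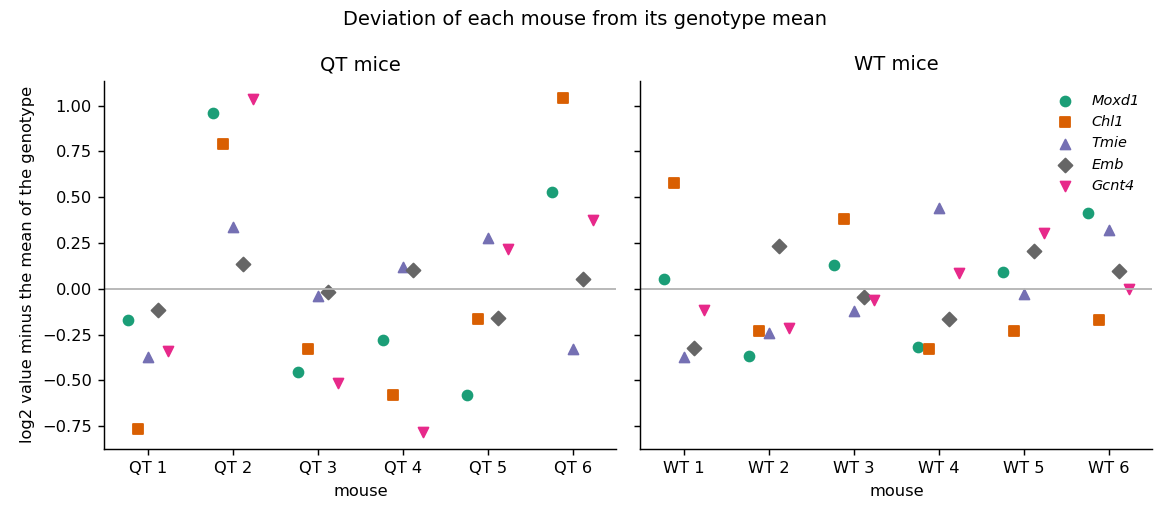
Log2 value of each mouse minus the mean of its genotype (y axis) for each gene (symbols), with the 6 QT mice in the left panel and the 6 WT mice in the right panel. In QT 2 all 5 genes lie above 0, in QT 6 Moxd1, Chl1 and Gcnt4 lie well above 0 while Tmie lies below, and no WT mouse has all 5 genes above 0.

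Whether the genes rose and fell together from mouse to mouse was tested within each genotype, which leaves out the difference that chose them. Over the 10 pairs of genes the mean Pearson r was 0.45 in QT (range 0.04 to 0.82, all 10 above 0) and -0.04 in WT (range -0.66 to 0.45, 7 above 0). None of the 20 correlations passed an exact permutation test with Benjamini-Hochberg adjustment over the 20 (smallest adjusted p = 0.509), and 1 had an unadjusted p under 0.05. The smallest p that 6 mice allow in this exact test of r is 0.00139, or 0.0278 after adjustment for a pair that stands alone among the 20. For Spearman's rho even a perfect order gives p = 0.0028 in the exact permutation test. A lone rho among the 20 could therefore not pass the adjustment. The mean r in QT was 0.12 without QT 2, and 0.18 with QT 2 when the Emb probe sets were averaged, so its size depended on that mouse and on the choice of the Emb probe set. The difference in mean r between the genotypes was not tested.

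The closest pair was Chl1 and Gcnt4 in QT, with r = 0.82 (exact permutation p = 0.042, adjusted p = 0.509) and Spearman's rho = 0.77 (exact permutation p = 0.103, adjusted p = 0.778). Without the 2 mice farthest from the median of Chl1, r was 0.57. Moxd1 and Chl1 in QT had r = 0.82 (exact permutation p = 0.072, adjusted p = 0.509) but rho = 0.37 (exact permutation p = 0.497, adjusted p = 0.806). That relation rested on the 2 mice farthest from the median of Moxd1, since r was -0.998 over the other 4. Moxd1 and Gcnt4 in QT had r = 0.77 (exact permutation p = 0.076, adjusted p = 0.509) and rho = 0.60 (exact permutation p = 0.242, adjusted p = 0.806). Its r was -0.62 without the 2 mice farthest from the median of Moxd1 but 0.50 without the 2 farthest from the median of Gcnt4. Moxd1 and Emb in QT had a lower r of 0.68 (exact permutation p = 0.140, adjusted p = 0.561). Their rho was higher, at 0.71 (exact permutation p = 0.136, adjusted p = 0.778). For this pair r was 0.32 without the 2 mice farthest from the median of Moxd1 and 0.63 without the 2 farthest from that of Emb. By Pearson's r over all QT mice, Tmie was nearly unrelated to Moxd1 (r = 0.04, exact permutation p = 0.947) and to Chl1 (r = 0.09, exact permutation p = 0.839). By rho it had -0.03 with Moxd1 and 0.37 with Chl1 (exact permutation p = 0.497 for Chl1). For Moxd1, r was -0.79 without the 2 mice farthest from the median of Moxd1 and 0.58 without the 2 farthest from that of Tmie. For Chl1, r was 0.80 without the 2 farthest from the median of Chl1 and 0.70 without the 2 farthest from that of Tmie. In WT the largest values of r were negative, of Chl1 with Tmie (r = -0.66, exact permutation p = 0.139, rho = -0.67, exact permutation p = 0.156) and with Emb (r = -0.64, exact permutation p = 0.175, rho = -0.41, exact permutation p = 0.433). By rho the largest WT relation was a positive one, of Tmie with Gcnt4 (rho = 0.77, exact permutation p = 0.103, r = 0.45, exact permutation p = 0.379). None of these passed the adjustment.

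**Figure D3:**
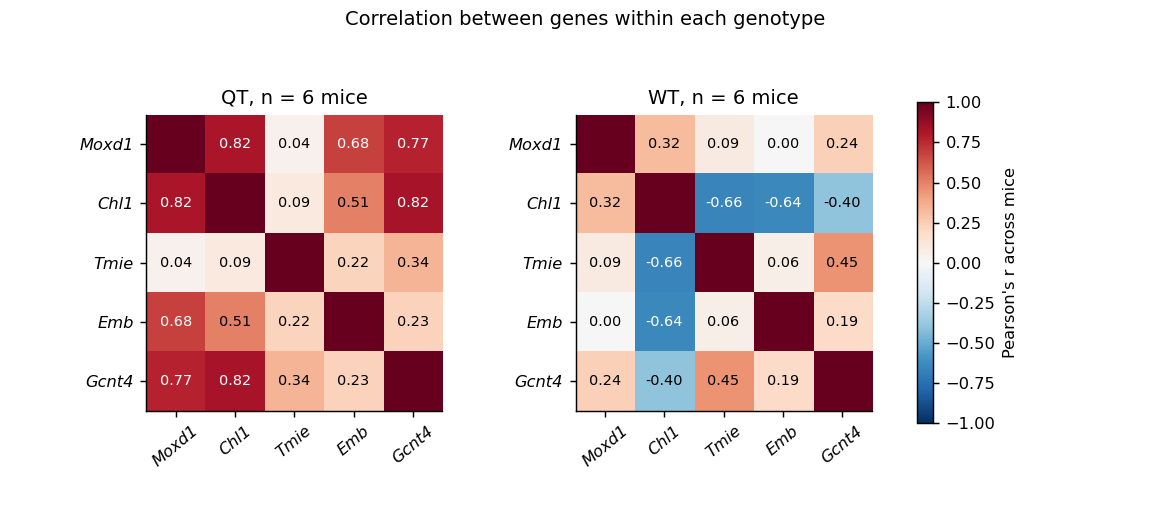
Pearson's r between the log2 values of each pair of genes across the 6 QT mice (left) and the 6 WT mice (right), with the color scale from -1 to 1. In QT all 10 values are above 0 and the highest join Moxd1, Chl1 and Gcnt4, whereas in WT Chl1 has negative values with Tmie, Emb and Gcnt4, and none of the 20 passed the adjusted exact permutation test.

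Marker levels of other cell types also varied from mouse to mouse, and the 5 genes were set against the mean of each of 12 marker lists within each genotype. With 6 mice a relation that stands alone among these 120 cannot fall below an adjusted p of 0.167, so the adjusted exact permutation test could hardly pass any, and the values are a description. The smallest adjusted p was 0.262, and 11 relations had an unadjusted p under 0.05, 6 in QT and 5 in WT. The largest in size was Tmie with the keratinocyte list in WT (r = -0.96, exact permutation p = 0.0069, adjusted p = 0.262, rho = -0.94, exact permutation p = 0.017, adjusted p = 0.571), and r was -0.96 without the 2 mice farthest from the median. That list lay near the array medians, at 5.93 to 6.09 log2 in QT and 5.93 to 6.00 log2 in WT. The highest positive one was Gcnt4 with the fibroblast, perichondrium and tendon list in QT (r = 0.95, exact permutation p = 0.0056, adjusted p = 0.262, rho = 1.00, exact permutation p = 0.0028, adjusted p = 0.333), and r was 0.95 without the 2 mice. In WT the same relation had r = -0.12 (exact permutation p = 0.808). The fibroblast list ranged from 10.09 to 10.76 log2 in QT and from 10.32 to 10.70 log2 in WT, and none of its 10 genes was called different between the genotypes. Of these genes 2 had an unadjusted limma p under 0.05, Postn with a difference of 0.72 (limma adjusted p = 0.052) and Prrx1 with -0.34 (limma adjusted p = 0.215). Chl1 with the same list in QT had r = 0.87 (exact permutation p = 0.033, adjusted p = 0.433) and rho = 0.77 (exact permutation p = 0.103, adjusted p = 0.649), and r = 0.87 without the 2 mice. Its r in WT was 0.45 (exact permutation p = 0.389). Gcnt4 was lower in QT mice with a higher erythroid list (r = -0.92, exact permutation p = 0.0083, adjusted p = 0.262, rho = -0.94, exact permutation p = 0.017, adjusted p = 0.571), and r was -0.62 without the 2 mice, while r in WT was 0.26 (exact permutation p = 0.571). The erythroid list spanned 6.58 to 10.28 log2 in QT and 6.87 to 8.85 log2 in WT. Moxd1 went up with the endothelial list in QT (r = 0.92, exact permutation p = 0.0097, adjusted p = 0.262, rho = 0.83, exact permutation p = 0.058, adjusted p = 0.636), and r was 0.56 without the 2 mice, while r in WT was 0.41 (exact permutation p = 0.426). The others under 0.05 had adjusted exact permutation p of 0.262 to 0.451. In QT they were Gcnt4 with the neutrophil and marrow list (r = -0.90, without the 2 mice -0.56) and Chl1 with the erythroid list (-0.79, -0.86). In WT Emb went with the erythroid list (0.86, 0.62) and the osteoblast and osteocyte list (0.85, 0.81). Moxd1 in WT went with the muscle list (0.85, 0.20), and Chl1 in WT against the osteoblast and osteocyte list (-0.86, 0.91). The differences between genotypes in these relations were not tested. The nerve list was near the array medians in both genotypes, at 5.87 to 6.04 log2 in QT and 5.86 to 5.97 log2 in WT. Of its neuronal genes, Nefl, Nefm and Snap25 lay under the medians in all mice, Tubb3 and Prph reached 6.44 and 6.34 log2 in QT 6, and Uchl1 was above the medians in all WT mice.

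Genes most like each of the 5 were sought among 12730 genes whose mean lay above the median of all probe sets. The measure was Pearson's r of the deviations from the genotype means over the 12 arrays, a description in which all genes share the arrays. For Moxd1 they were Megf6 (r = 0.92), Ednrb, the endothelin receptor B (0.91), and Ttc9 (0.90). None of these was called different between the genotypes, with log2 differences of 0.20, -0.17 and 0.58. For Chl1 they were Il13ra1 (0.93), Triqk (0.93) and Fstl1, a secreted follistatin-like protein (0.93). For Gcnt4 they were Rab34, a small GTPase (0.96), Acp6 (0.95) and Jkamp (0.94), whose differences were 0.00, -0.09 and -0.09. For Tmie they were Pacs2 (0.88), Nog, the BMP antagonist noggin (0.88), and Sidt2 (0.87), and for Emb Ttc27 (0.90), Golga7 (0.87) and Nop2 (0.86). Of these like genes Il13ra1 was the one called between QT and WT, where 2.30% of all genes were called.

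Il13ra1, a receptor chain for interleukin 13 and interleukin 4, was the one gene that led both this list and the list by raw values, each time for Chl1. Its log2 values were 10.32, 10.93, 10.22, 10.08, 10.31 and 10.84 in QT 1 to QT 6, against 9.51, 9.15, 9.47, 8.99, 9.09 and 9.09 in WT 1 to WT 6. QT 2 and QT 6 were its highest QT mice and WT 1 and WT 3 its highest WT mice, as for Chl1. The likeness was 0.92 among QT mice and 0.98 among WT mice. Il13ra1 was higher in QT by 1.23 on the log2 scale (limma adjusted p = 0.0011), with means of 10.45 ± 0.35 in QT and 9.22 ± 0.22 in WT (SD, n = 6 each). Il13ra1 lies on the X chromosome among the 50 measured genes on either side of Timp1, which is one of the mutated loci, and the share of the locus in its difference was not tested.

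**Figure D4:**
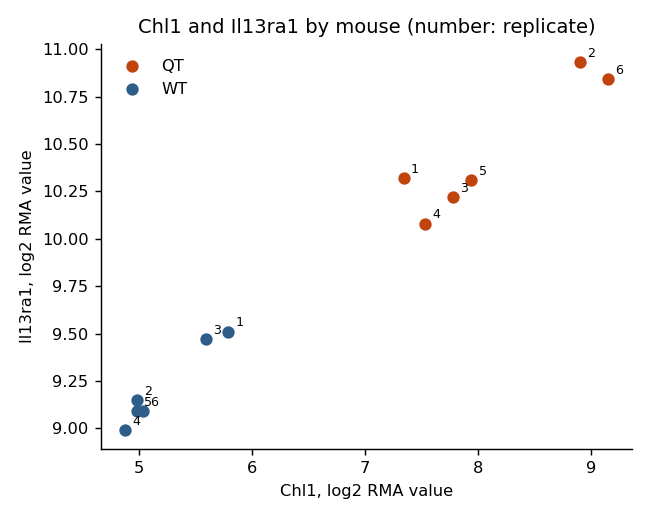
Log2 RMA values of Chl1 (x axis) and Il13ra1 (y axis) in each mouse, with QT and WT in different colors and the replicate number beside each point. QT 2 and QT 6 lie at the upper right of the QT mice and WT 1 and WT 3 above the other WT mice.

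By the raw values over the 12 arrays, where likeness is set mainly by the difference between genotypes that chose the genes, Moxd1 was most like Chl1 (0.97), the cytokine gene Il11 (0.97) and Zfp868 (0.97). Il11 averaged 8.76 ± 0.75 in QT and 5.92 ± 0.34 in WT (SD, n = 6 each). Chl1 was followed, after Il13ra1 (0.99), by Pigbos1 (0.97) and the secreted Wnt antagonist Sfrp4 (0.97), which averaged 8.54 ± 0.75 in QT and 6.48 ± 0.23 in WT. Tmie was most like the transcription factor gene Stat3 (0.97), 9030025P20Rik (0.96) and Atp10d (0.95), Emb like the osteocyte matrix gene Mepe (0.97), Tmem176b (0.97) and Ubxn8 (0.96), and Gcnt4 like the G protein regulator Rgs16 (0.98), Epdr1 (0.97) and the Wnt pathway gene Nkd2 (0.97). Mepe, a marker of the osteoblast and osteocyte list, averaged 8.52 ± 0.28 in QT and 6.94 ± 0.44 in WT, and Emb and Mepe were close among the WT mice (r = 0.97) and less so among the QT mice (r = 0.51), a difference that was not tested.

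Relatives and partners of the 5 genes were followed as 5 lists of 125 genes, of which 121 were measured. Of these, 10 genes were called (8 higher and 2 lower in QT, 8.26%), against 511 of all 22180 genes in either direction (2.30%). The lists were chosen with results of these data known, and their median log2 difference was 0.06 (all probe sets 0.00). Without WT 1, and likewise without WT 5 and WT 6, 6 genes were called. The 4 calls lost without WT 1 were Ank2, Adam8, Ncam2 and Gcnt2, and the 4 lost without WT 5 and WT 6 were Nfasc, Cntn2, Adam8 and St6galnac2.

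Among 24 measured copper monooxygenases and copper handling genes beside Moxd1, 2 were higher in QT and none lower (median difference -0.01). Lox, the lysyl oxidase that crosslinks collagen and elastin, had 11.29 to 12.23 log2 in QT and 10.41 to 10.84 log2 in WT, a difference of 1.01 (limma adjusted p = 0.0034). Its highest QT mice were QT 2 and QT 6, as for Moxd1. Mt1, a metallothionein that binds zinc and copper, was higher by 0.86 (limma adjusted p = 0.010), with 9.93 ± 0.26 in QT and 9.07 ± 0.33 in WT (SD, n = 6 each). The enzymes closest to Moxd1 were not called. Dbh and Moxd2 lay under the array medians in all mice, with differences of 0.02 and 0.03, and Pam, which amidates peptides, differed by -0.42 (limma adjusted p = 0.055).

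Of 26 genes of the L1 family and its partners, 3 were higher and 2 lower in QT (median difference 0.08). Cntn2, a contactin, averaged 6.87 ± 0.39 in QT and 6.03 ± 0.17 in WT (SD, n = 6 each; limma adjusted p = 0.012). Nfasc, the L1 family member neurofascin, had 7.59 to 8.86 log2 in QT and 7.15 to 7.50 log2 in WT, a difference of 0.78 (limma adjusted p = 0.022). QT 2 was the highest mouse for both, as for 4 of the 5 chosen genes. Adam8, a protease that sheds CHL1, differed by 0.80 (limma adjusted p = 0.049). It was highest in QT 1 and QT 4, with 7.96 and 7.98 log2. The other QT mice had 6.92 to 7.03, nearer to but still above WT with 6.28 to 6.83. QT 1 and QT 4 also had the highest means of the neutrophil and marrow list, 11.11 and 11.21 log2, against 8.68 to 10.26 log2 in the other QT mice and 8.54 to 10.21 log2 in WT, and the part of these cells was not tested. Its call was kept in only 7 of 22 alternative settings (adjusted p 0.026 to 0.147). The adaptor gene Ank2 and the adhesion gene Ncam2 both differed by -0.61 (limma adjusted p = 0.0083 and 0.0048), and Ncam2 was under the array medians. L1cam, the founding gene of the family, differed by 0.21, and Bace1, another protease that sheds CHL1, by 0.01. Neither was called.

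No partner gene of Tmie or Emb was called. Among 18 measured genes of the hair cell mechanotransduction complex, 2 had an unadjusted limma p under 0.05, and 12 lay under every array median, among them the channel genes Tmc1 and Tmc2 and the partner gene Lhfpl5. The brightest were the myosin genes Myo1c, with 8.26 ± 0.14 in QT and 8.39 ± 0.08 in WT, and Myo7a, with 7.52 ± 0.21 in QT and 7.29 ± 0.15 in WT (SD, n = 6 each). Of 18 basigin family and monocarboxylate transport genes none was called, and 5 had an unadjusted limma p under 0.05. Bsg, basigin itself, averaged 11.64 ± 0.12 in QT and 11.57 ± 0.05 in WT, and its relative Nptn averaged 11.49 ± 0.12 in QT and 11.45 ± 0.08 in WT (SD, n = 6 each). The lactate transporter genes Slc16a1 and Slc16a3 had differences of 0.29 and 0.49 (limma adjusted p = 0.395 and 0.188).

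In mucin-type O-glycan synthesis 3 of 35 genes were higher in QT and none lower (median difference 0.10). Galnt3, which starts O-glycan chains, had 8.08 to 8.82 log2 in QT and 6.88 to 7.85 log2 in WT, a difference of 1.02 (limma adjusted p = 0.0058) without overlap. St6galnac2, which caps chains with sialic acid, averaged 7.69 in QT and 6.83 in WT, a difference of 0.86 (limma adjusted p = 0.017), and like Adam8 was highest in QT 4 and QT 1. St6galnac2 lies near the Timp2 locus. Of the other branching enzymes, Gcnt2 differed by 0.65 (limma adjusted p = 0.0041) and lost the call when its 3 probe sets were averaged. Gcnt1, which like Gcnt4 makes core 2 branches, differed by 0.45 with a limma adjusted p of 0.047 but below the fold, and Gcnt3 by 0.03.

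**Figure D5:**
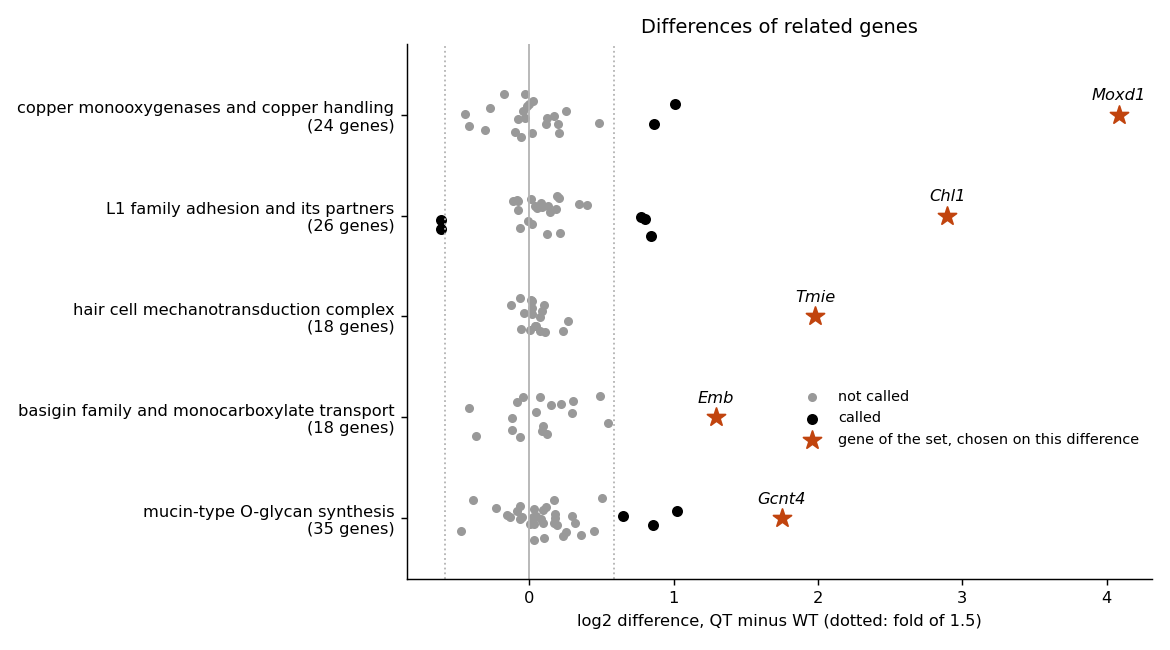
Log2 difference between QT and WT (x axis, QT minus WT) of each measured gene in the 5 lists (rows, points spread vertically for legibility), with called genes in black and the chosen gene of each list as a star. Dotted lines mark the fold of 1.5, and all called genes lie nearer to 0 than Moxd1, Chl1, Tmie, Emb and Gcnt4 of their own list.

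The chromosomal neighbors of the 5 genes were read from gene order in RefSeq (GRCm38.p6). Emb and Gcnt4 share chromosome 13 with 123 measured genes between them, and none of the 10 nearest measured genes of either was called. Moxd1 shares chromosome 10 with Timp3, with 541 measured genes between them, and none of its 10 nearest was called. Ccn2, next to Moxd1, was higher in QT by 0.39 (limma adjusted p = 0.045), short only of the fold. Chl1 lies on chromosome 6 with 56 measured genes between it and Timp4. Its neighbors Cntn3 and Cntn6, both contactin genes, differed by 0.13 and 0.06 and none of the 10 nearest was called. Among these 10, Pdzrn3 differed by -0.47 (limma adjusted p = 0.037), short only of the fold. Around the Timp loci (150 measured genes on either side) 33 of 1124 genes were called, 13 higher and 20 lower in QT (2.94%, against 2.30% of all genes). Around Timp2 13 of 241 were called (5.39%), and around Timp4 3 of 300 were called higher, Chl1, Clec4n and Clec4d, and 7 lower (3.33% in either direction). Chl1 is counted here and among the 33, and its call was fixed by its choice. With 50 measured genes on either side of Timp4, which leaves Chl1 out, 0 of 100 were called higher and 2 lower. Tmie lies on chromosome 9, which holds no Timp gene. Of its 10 nearest measured genes 2 protease genes were called, Prss50 next to it with 6.09 ± 0.13 in QT and 6.98 ± 0.38 in WT (limma adjusted p = 0.0071), and Prss46 with 7.31 ± 0.34 in QT and 6.45 ± 0.35 in WT (SD, n = 6 each; limma adjusted p = 0.021). Prss46 was thus higher in QT like Tmie, Prss50 between them was lower, and Als2cl on the other side differed by 0.06.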

How the data were processed

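Total RNA of sternal cartilage from 6 QT and 6 WT mice was hybridized to Affymetrix mouse gene arrays. The deposited values are log2 intensities that the authors made with RMA, and the submitters' processing notes name Partek 6.6. The files and notes used here name no genome build. Of 41345 probe sets, 23521 had 1 gene symbol, 1820 several and 16004 none, and a gene was read from its brightest probe set with 1 symbol. QT was compared with WT using limma 3.58.1 (R 4.3.3) on all probe sets, with Benjamini-Hochberg adjustment. Genotypes and replicate numbers came from the labels, which call the replicates biological. Correlations were tested by enumerating all 720 orders of 6 mice (Python 3.11.15, scipy 1.17.1), and the procedures were tested on simulated data. The text names the 5 genes, the 4 Timp genes, up to 4 called genes with the largest difference in each related list (the 2 brightest where none was called), and the 3 genes most like each of the 5. Other genes, among them close relatives, chromosomal neighbors and markers, were picked after their values were seen. The members and lists were chosen with earlier results of these data known. Alternatives left out each mouse, the mice with low Xist, or dim probe sets, and changed the normalization, weights, block, fold and correction.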

Additional observations from a re-analysis of the deposited data

Results flagged for a closer look

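Among 38 sets of 6 mice examined (only a part of the genes named above, by genotype), 1 held a mouse that stood apart from the rest. Cntn2 in QT 2 was 7.63 log2, and the nearest other QT mouse was 6.84, a gap of 0.693 of the range in QT, above Dixon's critical value of 0.625 for 6 samples. Chance alone would mark about 1 in 20 such sets. QT 2 was also the highest QT mouse for Moxd1, Tmie, Emb and Gcnt4.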

How the results depend on the processing

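The differences of the 5 genes kept their direction in every alternative run, and only that of Emb moved by more than the spread between mice, to 0.77 with the mean of both probe sets. The 665 probe sets called became 1449 without the fold threshold (515 higher and 934 lower in QT) and 423 with the replicate number as a block (166 higher and 257 lower). Same-numbered mice did not deviate together (r -0.21 to -0.01, and 0 of 6 QT mice were closest to their own number), but a pairing by number was not tested. Leaving out 1 mouse gave 515 to 664. The 10 related genes called became 6 without WT 5 and WT 6, and 6 to 10 with 1 mouse left out. The 33 genes called around the Timp loci became 57 without the fold threshold, 13 with 50 genes on either side, and 24 to 33 with 1 mouse left out. A looser rule raises a count and fewer genes lower it by construction, and the cause of the other changes was not tested. The 20 correlations between members gave 0 calls in all alternatives (0 to 0 when 1 mouse was left out), which says nothing of stability, since 5 mice cannot bring a lone pair below an adjusted p of 0.167. The mean r in QT was 0.12 to 0.59 with 1 mouse left out, lowest without QT 2, and 0.18 with the mean of both Emb probe sets. Array number limits precision: 6 mice per genotype cannot resolve even a perfect rank correlation among 120 relations. With no detection call in the files, the WT values of Chl1 and Gcnt4, whose WT means lay under every array median, are not known to be above background. The same holds for Moxd1 in WT, with a mean of 6.38 log2 near the array medians. Its values in WT 2 and WT 4, 6.01 and 6.06 log2, lay under every array median.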
